A study of Mus musculus with 11 samples.

Results

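Among the regions of open chromatin in the mouse esophagus were 308 that were open in all 3 wild-type libraries, closed in all 3 libraries of mice with an activated form of Smoothened, the transducer of Hedgehog signals, and open in all 3 libraries of mice that carried it together with a floxed Sox9 gene. They were chosen by that pattern alone, out of 124941 regions obtained by merging the interval lists of 11 ATAC-seq libraries, and made up 0.247% of them. A region counted as open in a library where one of its called intervals overlapped the region by at least 1 bp, and as closed where none did. Closed therefore means that no interval was called, not that no signal was present. Because the pattern chose the regions, their absence from SmoM2 and their presence in the other 2 groups are descriptions with no test.

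ATAC-seq marks accessible DNA by the places where a transposase inserts adapters. The wild-type group (WT, 3 libraries) came from CD1 mice, and its cells were sorted for low EpCAM, an adhesion protein of epithelia. The SmoM2 group (3 libraries) came from CD1 mice of genotype Krt5-SmoM2, in which an activated Smoothened is tied by name to Krt5, a keratin gene of basal epithelial cells, and its cells were sorted for high EpCAM. The SmoM2-Sox9cKO group (3 libraries) had the genotype Krt5-SmoM2-Sox9fl/fl and was also sorted for high EpCAM, with no strain given in the labels. The Embryo group (2 libraries) was embryonic esophagus of day 13 from Krt8YFP embryos, sorted on YFP, with no strain given. Age, time after activation of the transgene and the part of Sox9 that is removed are not given in the labels, nor is the source of the Cre recombinase that acts on floxed Sox9. No group carried floxed Sox9 without SmoM2. In WT against either other adult group, gate and genotype cannot be told apart, whereas SmoM2 and SmoM2-Sox9cKO share a gate. Nothing in the labels says that libraries of a group came from separate animals, so spreads and p-values cover these libraries and may be technical.

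Hedgehog ligands relieve Patched inhibition of Smoothened, which then acts on the Gli transcription factors, and SmoM2 is a form of Smoothened that does not need a ligand. In adult esophagus the lining is a stratified squamous epithelium renewed by basal cells that express Krt5 and Trp63. Sox9 is a transcription factor of the Sox family, which binds short AT-rich motifs, and it is known from progenitors of glandular and columnar epithelia and of hair follicles.

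In total 14 promoter windows of the RefSeq table (GRCm38.p6 reference, 250 bases before to 50 after a start site) lay wholly inside one of the 308 regions. They are the part of these regions for which sequence can be shown, and they place the pattern directly over named start sites. In the 6 windows below, read 5′ to 3′ on the gene's strand, capitals mark the Sox-type motif ACAAAG and the AP-1 motif TGANTCA on either strand. Agr3 (chr12:35925371-35925670, plus strand) encodes a disulfide isomerase of secretory and ciliated epithelia, Unc5cl (chr17:48454651-48454950, plus) a death-domain protein, Hoxd1 (chr2:74762730-74763029, plus) a homeobox factor, Grm6 (chr11:50850435-50850734, plus) a glutamate receptor, and Car9 (chr4:43506776-43507075, plus) a carbonic anhydrase. Gm36139 (chr1:151088058-151088357, minus) is a predicted gene and is shown because its window holds 2 AP-1 motifs. Of the windows not shown, those of Adgra1, Lingo1, 1700048O20Rik, Tub and Camk2b held neither motif. That of Lrrc38 held ACAAAG, and those of Gm31471 and the other window of Gm36139 held TGANTCA. The 6 are therefore not a sample of the 14.
Agr3: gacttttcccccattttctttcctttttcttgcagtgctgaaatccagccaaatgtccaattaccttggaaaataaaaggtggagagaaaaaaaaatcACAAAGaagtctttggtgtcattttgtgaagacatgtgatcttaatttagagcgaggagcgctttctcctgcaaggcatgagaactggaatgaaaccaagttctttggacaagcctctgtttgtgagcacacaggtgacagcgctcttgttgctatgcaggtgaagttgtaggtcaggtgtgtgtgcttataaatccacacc
Unc5cl: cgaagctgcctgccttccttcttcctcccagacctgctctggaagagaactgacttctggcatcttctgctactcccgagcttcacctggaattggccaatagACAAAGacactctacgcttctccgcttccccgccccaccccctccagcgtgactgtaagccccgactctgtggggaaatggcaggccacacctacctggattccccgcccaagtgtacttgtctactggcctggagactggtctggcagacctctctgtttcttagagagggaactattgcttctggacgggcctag
Hoxd1: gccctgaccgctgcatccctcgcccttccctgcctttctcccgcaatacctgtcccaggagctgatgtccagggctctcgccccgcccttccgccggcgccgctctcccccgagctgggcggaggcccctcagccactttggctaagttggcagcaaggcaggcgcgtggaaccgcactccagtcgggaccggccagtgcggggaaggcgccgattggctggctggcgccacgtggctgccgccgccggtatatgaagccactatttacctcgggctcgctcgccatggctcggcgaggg
Grm6: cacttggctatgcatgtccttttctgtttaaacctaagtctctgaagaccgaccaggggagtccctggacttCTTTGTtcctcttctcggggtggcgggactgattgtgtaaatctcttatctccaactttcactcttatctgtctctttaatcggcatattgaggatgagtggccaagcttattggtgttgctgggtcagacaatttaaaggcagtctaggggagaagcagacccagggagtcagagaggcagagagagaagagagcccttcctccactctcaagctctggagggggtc
Car9: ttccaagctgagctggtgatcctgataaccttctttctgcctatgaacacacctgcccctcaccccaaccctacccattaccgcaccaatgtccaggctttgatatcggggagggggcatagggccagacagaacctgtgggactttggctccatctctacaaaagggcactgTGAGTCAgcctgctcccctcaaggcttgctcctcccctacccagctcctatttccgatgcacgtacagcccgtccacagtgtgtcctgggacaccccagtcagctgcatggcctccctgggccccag
Gm36139: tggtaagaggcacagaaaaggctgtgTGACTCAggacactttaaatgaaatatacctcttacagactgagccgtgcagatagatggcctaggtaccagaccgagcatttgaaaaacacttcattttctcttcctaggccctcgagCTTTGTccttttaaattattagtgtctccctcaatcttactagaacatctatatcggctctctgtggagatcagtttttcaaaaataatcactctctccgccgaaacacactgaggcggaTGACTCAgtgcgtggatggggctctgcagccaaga

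The sequence ACAAAG stood in 5 of the 14 windows, against 18.7% of all 32619 promoter windows and 12.4% of the 12960 windows inside regions open in all 9 adult libraries. TGANTCA stood in 4 of 14, against 7.85% and 5.84%. The other Sox motif searched, ACAATG, and the Gli motif TGGGTGG were in 0 of 14, against 12.2% and 9.36% of all windows. The remaining motifs were searched on both strands in the same way. Of those found, the Tead motif GGAATG was in 2 windows, against 14.6% of all windows. The Klf motif GGGTGTG was in 2 windows, against 8.0%, and so was the Gata motif AGATAA, against 11.2% of all windows. A common E-box, CAGCTG, was in 2 windows, against 16.4%. The partial site of Nfi factors, TTGGCA, was in 3 windows, against 14.1%. No window held the Runx motif TGTGGT, which 16.6% of all windows hold, or the Fox motif TGTTTAC, which 3.67% of them hold. None held the Ets motif ACCGGAA, present in 3.74% of all windows, or the partial site of Grhl factors, AACCGG, present in 6.88% and sharing letters with the Ets motif. A pair of the 14 windows belongs to Gm36139 and overlaps, so 1 of its AP-1 matches is counted in both. With 14 windows these shares are coarse, and a match describes letters, not binding. Median GC content was 57.2% in the 14 windows, 62.3% in windows inside regions open in all 9 adult libraries and 53.0% in all windows, and the median number of CG pairs was 8.5, 22.0 and 7.0.

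Across the series, adult libraries had between 69026 and 87910 intervals. They covered 55.3 ± 3.14 Mb for WT, and for the groups with the transgene 56.3 ± 5.72 Mb (SmoM2) and 55.5 ± 5.61 Mb (SmoM2-Sox9cKO; mean ± SD, n = 3 each). The Embryo lists had 24902 and 14255. The longest list was SmoM2 replicate 3, and the number of reads behind each list is unknown. Any pair of the 11 lists shared at most 280 identical intervals. All 7 basal keratinocyte markers (Krt5, Krt14 and Trp63 among them) had an interval in their gene body or within 1 kb of it in every adult library. Of 6 immune markers, intervals lay at 2, 1 and 2 in WT, 1, 1 and 2 in SmoM2, and 4, 3 and 4 in SmoM2-Sox9cKO. Of 6 neural and glial markers the numbers were 5, 4 and 6, then 5, 5 and 3, then 4, 2 and 2. The part of other cells in the pattern was not tested. Intervals at 4 Y-linked genes numbered 5, 0 and 0 in WT and 8, 10 and 0 in SmoM2-Sox9cKO, while all SmoM2 libraries had 9, and the part of sex in the pattern was not tested. On the X chromosome lay 5 of the 308 regions. At Sox9 itself (chr11:112782210-112787757) each adult library had 1 interval, covering 807, 826 and 826 bp in WT, 872, 900 and 912 bp in SmoM2 and 984, 934 and 900 bp in SmoM2-Sox9cKO. An open interval at Sox9 does not show whether the gene was deleted, and the labels were not checked by it.

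More than any other outcome, a region that all SmoM2 libraries lacked was open in none of the SmoM2-Sox9cKO libraries. Of all regions, 3887 (3.11%) were open in 3 of 3 WT and 0 of 3 SmoM2 libraries. Of these, 2216 (57.0%, 95% Wilson interval 55.5 to 58.6) were open in none of the SmoM2-Sox9cKO libraries, 865 (22.3%) in 1, 498 (12.8%) in 2 and 308 (7.92%, 7.12 to 8.82) in all 3. Regions that appeared in SmoM2 were split the other way. Of 8637 regions (6.91% of all) closed in 3 of 3 WT and open in 3 of 3 SmoM2 libraries, 3877 (44.9%) were open in 3 of 3 SmoM2-Sox9cKO libraries and 1155 (13.4%) in none. Between groups that share a gate, 847 regions (0.678%) were open in all SmoM2-Sox9cKO and no SmoM2 libraries, and 308 of these (36.4%) were open in all 3 WT libraries, while 251 were open in no WT library. Intervals on shares here and below cover counting error over regions only, and regions of one library are not replicates. The comparisons share libraries, so their shares are given side by side with no test.

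**Figure D1:**
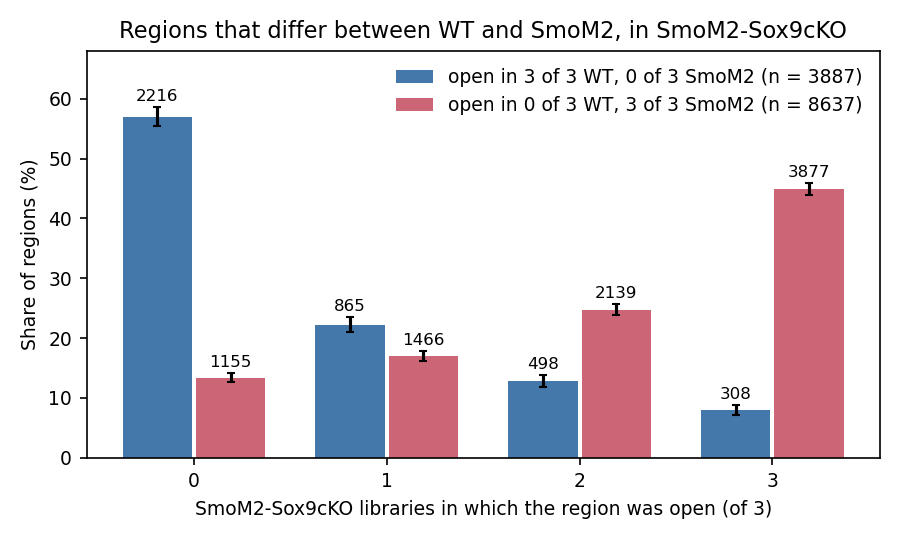
Regions that differ between WT and SmoM2, by the number of SmoM2-Sox9cKO libraries in which they were open (horizontal axis) and as a share of the 3887 or 8637 regions of each kind (vertical axis, percent, with 95% Wilson intervals and the number of regions on each bar). The share falls from 57.0% to 7.92% from left to right for regions closed in SmoM2, and is largest, 44.9%, at 3 of 3 for regions that opened in SmoM2.

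Set against the other single-group patterns, the pattern was not the rarest. Of regions open in all libraries of 2 adult groups and in none of the third, 3877 were missing from WT, 308 from SmoM2 and 186 from SmoM2-Sox9cKO. Of regions open in 1 adult group alone, WT had 2216, SmoM2 1155 and SmoM2-Sox9cKO 251. The 308 regions also stood beside a larger group that SmoM2 kept in part. Of 47633 regions open in 3 of 3 WT and 3 of 3 SmoM2-Sox9cKO libraries, 724 were open in 1 SmoM2 library, 2082 in 2 and 44519 in all 3.

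Leaving out a library and choosing regions by the same rule on the remaining 8 showed how far the pattern carried to a library whose openness was not used. The borders of the regions still came from all 11 lists, the left-out one included. In the WT libraries 77.2%, 89.8% and 89.8% of the regions so chosen were open (85.6% ± 7.28, mean ± SD, n = 3). Among regions that met the rest of the rule but were open in neither of the other 2 WT libraries, 8.06%, 16.3% and 18.2% were open. In the SmoM2-Sox9cKO libraries the shares were 73.2%, 54.7% and 70.3% (66.1% ± 9.94, n = 3), against 17.1%, 5.26% and 11.4% of regions open in neither of the other 2. In both groups most of the regions were open in the library that had not chosen them. In SmoM2, where the rule asks for closed regions, the shares varied with the library. When SmoM2 replicate 1 or 2 was left out, 24.7% and 28.2% of the regions that the other 8 libraries called closed in SmoM2 turned out open in it, and in replicate 3, with the longest list, 62.0% did (38.3% ± 20.6, n = 3). Of regions open in both other SmoM2 libraries, 97.5%, 98.2% and 99.7% were open in the left-out one. Without SmoM2 replicate 3 the rule chose 810 regions in place of 308, and without SmoM2-Sox9cKO replicate 2 it chose 563, a larger change than leaving out any of the other 7 adult libraries gave (343 to 438).

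**Figure D2:**
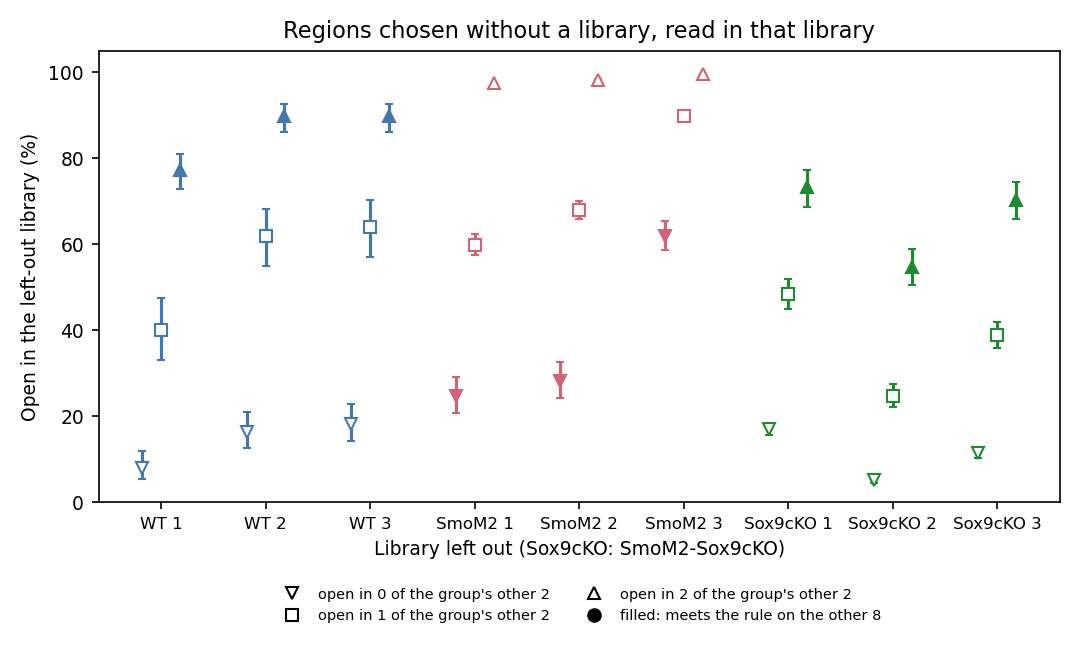
Share of regions open (vertical axis, percent, with 95% Wilson intervals) in a library that was left out when the regions were chosen (horizontal axis), by how many of the other 2 libraries of its group were open. Filled symbols meet the rule on the other 8 libraries: they lie at 77.2% to 89.8% in WT and 54.7% to 73.2% in SmoM2-Sox9cKO, and at 24.7% to 62.0% in SmoM2, where the rule asks for closed regions.

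The regions lay near the lower edge of what was called. The lowest −log10 q-value of an interval in the lists was 1.3. For each of the 308 regions, the weakest of its 6 intervals had a −log10 q between 1.32 and 11.7, with a median of 2.7. It was under 2 in 92 regions (29.9%) and at least 5 in 48 (15.6%). Just outside the rule were the 724 regions with an interval in 1 SmoM2 library. Their median −log10 q in WT was 6.02, 8.68 and 8.07, and in SmoM2-Sox9cKO 6.55, 5.66 and 6.12, while the SmoM2 intervals that kept them out had medians of 3.87, 3.12 and 4.68. The 498 regions that missed 1 SmoM2-Sox9cKO library had medians of 4.28, 3.39 and 3.98 in the SmoM2-Sox9cKO libraries that held them, against 5.77, 4.54 and 5.5 for the 308. The 161 regions that missed 1 WT library had medians of 3.7, 4.15 and 4.5 in WT, against 6.02, 8.68 and 7.41. The nearest interval of any SmoM2 library was a median of 5231.5 bp away, at least 70 bp, and within 1 kb of 31 regions.

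Where they were open, these regions were low and narrow, and more so in SmoM2-Sox9cKO than in WT. The median fold enrichment over local background, as the authors' lists give it, was 4.39, 4.81 and 4.51 in the 3 WT libraries and 4.1, 3.63 and 3.87 in the SmoM2-Sox9cKO libraries. Because lists differ in scale, each interval was also placed as a percentile among the regions open in all 9 adult libraries within the same list. The median percentile was 23.4, 20 and 25.2 in WT and 12.1, 5.49 and 9.11 in SmoM2-Sox9cKO. All 3 SmoM2-Sox9cKO libraries lay under all 3 WT libraries. The mean was 22.9 ± 2.67 in WT and 8.91 ± 3.32 in SmoM2-Sox9cKO (SD, n = 3 each), a difference of -14.0 percentile points (exact permutation test, two-sided, p = 0.1, the smallest that 3 against 3 allows). Width gave the same order. Relative to the median width of the regions open in all 9 adult libraries, the median was 0.655, 0.641 and 0.691 in WT and 0.487, 0.427 and 0.544 in SmoM2-Sox9cKO. That is 0.662 ± 0.0258 against 0.486 ± 0.0584 (SD, n = 3 each), a difference of -0.176 (exact permutation test, two-sided, p = 0.1). Neither can pass 0.05 in this design. The regions were chosen by called intervals in these same libraries and by their absence from SmoM2, so the choice is not independent of height or width. The part of that choice in both differences was not tested.

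Region by region, the mean percentile was lower in SmoM2-Sox9cKO than in WT at 260 of the 308 and higher at 48. At 126 regions (40.9%) all 3 SmoM2-Sox9cKO percentiles lay under all 3 WT percentiles, where 11.9% of the regions open in all 9 adult libraries did so. At 4 regions (1.3%) they lay over all 3, where 12.4% did so. Regions open in all 9 adult libraries were not chosen by absence from a group, so they are an unlike base. By fold values without the percentile, 37 of the 126 overlapped between the groups, and 9 regions that overlapped by percentile stood higher in SmoM2-Sox9cKO. The same order appeared in the mirrored pattern. The 186 regions missing only from SmoM2-Sox9cKO had median percentiles of 23.4, 23.5 and 23.6 in WT and 7.87, 13.7 and 10.5 in SmoM2. There too WT intervals stood higher than those of the other group that held the regions. The 3877 regions missing only from WT stood higher, at 36.2, 27.3 and 33.4 in SmoM2 and 27.7, 32.6 and 18.3 in SmoM2-Sox9cKO. The 2216 regions open in WT alone stood at 17.3, 14.6 and 17.7 in WT, below the 308 in each WT library. Summits, the positions of highest signal, lay a median of 69.3 bp apart between WT libraries, 63.0 bp between SmoM2-Sox9cKO libraries and 74.4 bp between the groups (means over 3, 3 and 9 pairs of libraries). In the regions open in all 9 adult libraries these distances were 56.7, 33.7 and 51.3 bp.

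**Figure D3:**
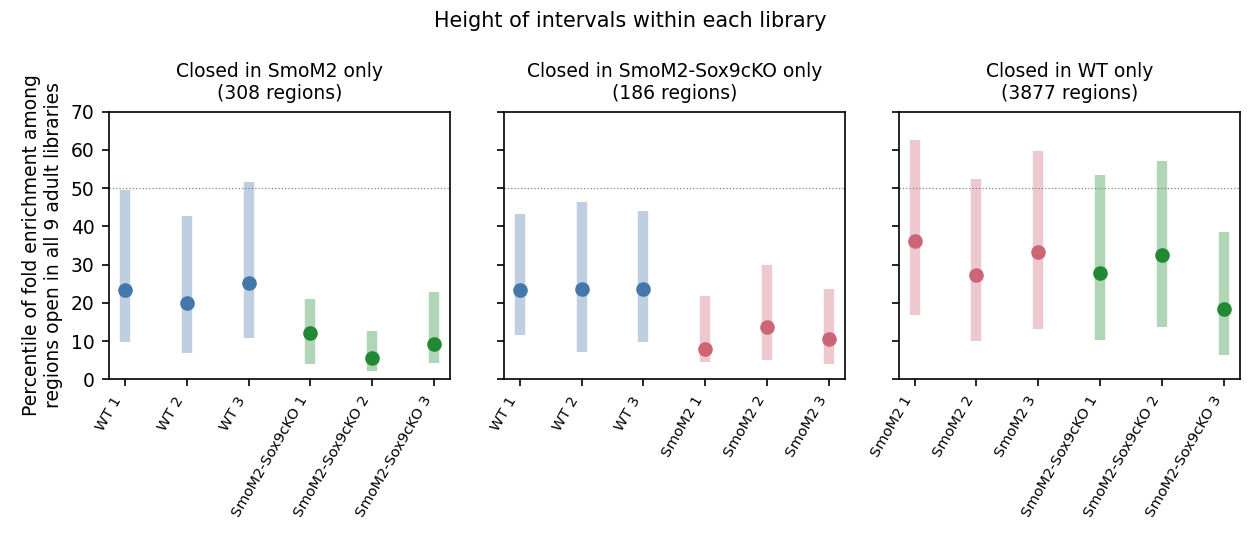
Percentile of the authors' fold enrichment (vertical axis, among regions open in all 9 adult libraries of the same list) for regions missing from 1 adult group, by library (horizontal axis). Points are medians over regions and bars run from the lower to the upper quartile, and the dotted line marks the reference median of 50. In the left panel the SmoM2-Sox9cKO medians, 5.49 to 12.1, lie under the WT medians, 20 to 25.2, and in the middle panel the SmoM2 medians, 7.87 to 13.7, lie under WT in the same way.

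The 12 highest regions, by their median percentile over the 6 libraries, lay within or near single genes with 2 exceptions. Fold values of the groups come from lists of different scale, so in what follows the groups of a region are said to overlap or to stand apart by percentile, and fold values are given beside. The highest was within Stac (chr9:111632690-111633360), which encodes an adaptor protein of calcium channels. Its fold enrichment was 7.62, 13.9 and 7.92 in WT and 7.19, 6.05 and 10.7 in SmoM2-Sox9cKO, so the groups overlapped. The second (chr19:21990301-21991688) had no protein-coding gene within 100 kb and stood at 9.69, 9.17 and 9.96 in WT against 6.63, 3.93 and 8.63. Within Slc24a3 (chr2:145329631-145330500), a sodium, potassium and calcium exchanger, the values were 10.6, 8.92 and 9.74 against 4.42, 4.84 and 8.04. In these last 2 regions every SmoM2-Sox9cKO library lay under every WT library. The region 6.95 kb from Kcna10 (chr3:107175157-107176189), a voltage-gated potassium channel gene, had 8.44, 10.2 and 9.34 in WT against 6.08, 5.14 and 5.06. Within Letm2 (chr8:25584778-25585642), of a family of mitochondrial inner membrane proteins, the fold was 8.79, 8.56 and 11.1 against 5.81, 5.75 and 7.44. Both kept the order of the groups without overlap.

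Within Lima1 (chr15:99852472-99853321), whose product crosslinks actin filaments, the fold enrichment was 7.61, 8.37 and 6.72 in WT and 6.36, 7.86 and 7.5 in SmoM2-Sox9cKO. By percentile these were 75.1, 68.2 and 63.3 against 44.5, 47.3 and 54.2, so the groups stood apart on that scale and overlapped on the other. Within Slit3 (chr11:35550029-35550796), a secreted guidance ligand of Robo receptors, the fold was 7.0, 6.98 and 6.59 against 6.36, 9.38 and 7.44, with overlap on both scales. A region with no protein-coding gene within 100 kb (chr13:68173435-68174012) had 5.49, 9.89 and 9.68 against 4.7, 7.86 and 8.33, also with overlap, and lay 328.7 kb from the nearest SmoM2 interval. Within Stk10 (chr11:32604920-32606517), a lymphocyte kinase, 1 library was low: 7.35, 7.56 and 7.34 in WT, and 7.47, 6.82 and 2.98 in SmoM2-Sox9cKO. The regions 55.5 kb from Pcnx, within Ogfod3 and 57.0 kb from Ankrd46 completed the 12. Near Pcnx the groups stood apart, with 9.98, 8.26 and 9.48 against 6.36, 5.44 and 5.95, and in Ogfod3 and near Ankrd46 they stood apart by percentile and overlapped by fold.

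**Figure D4:**
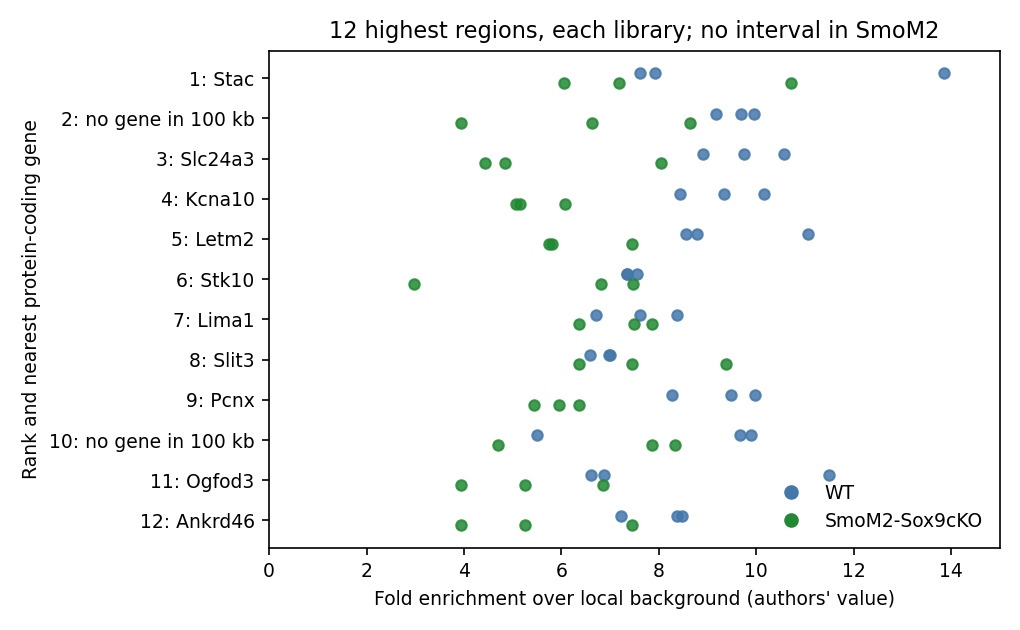
Fold enrichment over local background (horizontal axis, the authors' value) of the 12 highest regions (vertical axis, by rank and nearest protein-coding gene within 100 kb) in the 3 WT and 3 SmoM2-Sox9cKO libraries, 1 point each. No SmoM2 library had an interval in any of them, so none is drawn. At Slc24a3, Kcna10, Letm2 and Pcnx all WT points lie to the right of all SmoM2-Sox9cKO points, while at Lima1 and Slit3 they are mixed on this scale.

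The lowest 3 regions were weak in every library. Within Stx7 (chr10:24167998-24168836), a syntaxin of endosomes, the fold was 2.07, 2.53 and 2.68 in WT and 2.13, 2.11 and 2.13 in SmoM2-Sox9cKO. Within Dlgap1 (chr17:70745369-70745745) it was 2.53, 2.4 and 1.83 against 2.07, 2.91 and 2.32, and within Evl (chr12:108674261-108676103) 3.23, 2.39 and 2.68 against 2.08, 2.3 and 2.03. Such regions met the rule with the weakest intervals, and the nearest SmoM2 interval was 1.68, 0.709 and 1.03 kb away.

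A core of 20 regions met the rule under each of 8 other ways of drawing intervals or counting openness that were tried. Stricter intervals kept 48 of the 308, lists of equal length 132, and an interval covering at least 50% of the region 54. The other settings removed few regions or repeated a choice. Merging the adult lists alone kept all 308, as did asking for 2 of 3 libraries, which cannot remove any. Autosomes alone kept 303 and windows of one fixed width 299. A −log10 q of at least 5 in WT and SmoM2-Sox9cKO alone kept the same 48 as the stricter intervals. The 8 are therefore not separate tests. The core was picked by these outcomes and is given as a description. It held the regions in Stac, Lima1 and the highest one in Slit3, and others within Cemip, Glis1, Fmod, Mrvi1, Aopep and Pcsk6. Cemip (chr7:83952348-83952960) encodes a protein of hyaluronan breakdown, and its fold enrichment was 6.22, 9.09 and 4.98 in WT against 6.91, 7.86 and 7.14. Glis1 (chr4:107602654-107603346) encodes a zinc finger factor of the Gli-similar family, and the fold was 8.22, 7.67 and 7.91 against 4.7, 7.26 and 5.67. Fmod (chr1:134042480-134043409), a small proteoglycan of matrix, had 5.7, 7.75 and 6.38 against 4.93, 4.84 and 5.68. In Glis1 and Fmod the SmoM2-Sox9cKO values all lay under those of WT, and in Cemip the groups overlapped. Only 48 of the 308 (15.6%) met the rule when every interval needed a −log10 q of at least 5, which is why most of the regions are reported as a set and not one by one.

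By position the 308 were close to all regions in their share within genes and far from genes, and lay at gene ends less than all regions and more than those open in WT alone, with no test. They were 333 to 2266 bp wide, with a median of 806 bp. In all 166 (53.9%, 48.3 to 59.4) overlapped a gene body, against 50.5% of regions open in WT alone, 63.9% of those open in all 9 adult libraries and 56.5% of all regions. Exons, introns and UTRs were not assigned. Within 1 kb of a gene end lay 26 regions (8.44%, 5.83 to 12.1), against 3.84% (3.11 to 4.72) of regions open in WT alone, 27.3% of those open in all 9 and 13.6% of all regions. Over 100 kb from any protein-coding gene lay 31 (10.1%, 7.18 to 13.9), against 15.1%, 6.91% and 10.4% in the same order. By start sites of the RefSeq promoter table, 22 of the 299 regions that could be placed lay within 1 kb of one (7.36%), against 3.64% of regions open in WT alone and 12.9% of all regions. Among the 48 regions with strong intervals the share near gene ends was 2.08%. Chromosomes 11, 7 and 4 held the most, with 32, 30 and 27 regions, or 10.4%, 9.74% and 8.77%, against 6.37%, 5.69% and 6.42% of all regions.

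Of the 26 regions at gene ends, the highest 12 by percentile were named. Besides Agr3 and the other promoters shown above, these lay at Lbp, which encodes a plasma protein that binds bacterial lipopolysaccharide, at Gdnf, a ligand of the Ret receptor, and at Cd40, a receptor of the tumor necrosis factor family. At Agr3 the fold enrichment was 6.11, 9.62 and 6.36 in WT and 5.8, 5.14 and 5.06 in SmoM2-Sox9cKO, with no overlap. At Unc5cl it was 4.39, 4.28 and 5.39 in WT and 5.53, 6.65 and 7.44 in SmoM2-Sox9cKO, higher by fold, whereas the percentiles of 23.4, 13.4 and 41.0 against 32.0, 34.4 and 53.4 overlapped. At Hoxd1 it was 5.39, 5.68 and 6.84 against 4.42, 6.05 and 3.27, at Lbp 6.59, 5.61 and 5.9 against 4.15, 3.33 and 5.66, and at Gdnf (chr15:7838324-7839822) 5.58, 5.46 and 5.67 against 2.76, 4.54 and 5.4. At Gdnf the groups stood apart on both scales, and at Lbp and Hoxd1 by percentile alone. At Cd40 it was 4.03, 5.88 and 4.7 against 3.32, 4.84 and 5.56, with overlap. Adgra1, Srsf12, Arhgap6, Cacng4 and Vash2 also had a region within 1 kb of a gene end.

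**Figure D5:**
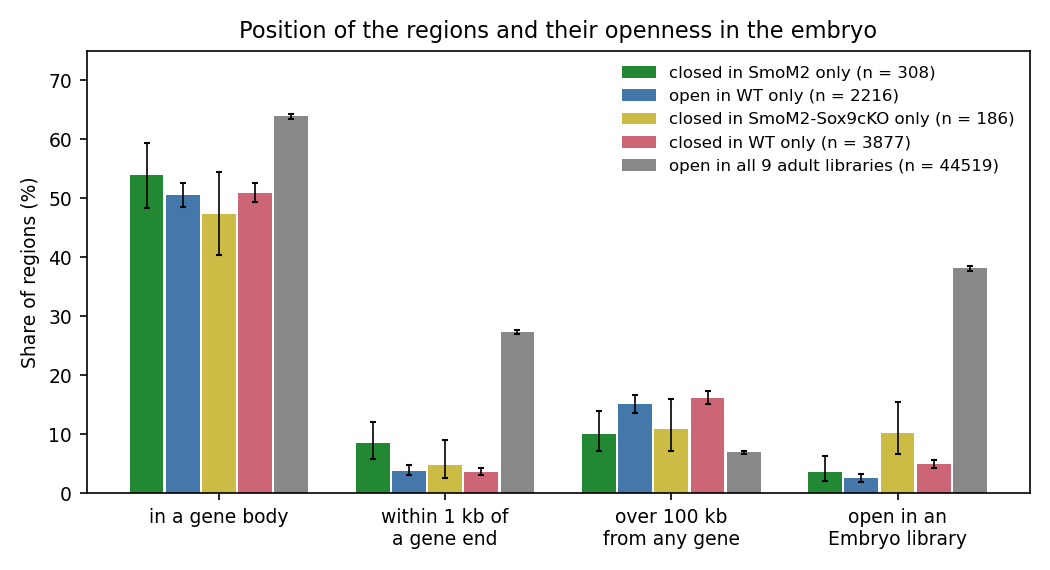
Shares of regions (vertical axis, percent, with 95% Wilson intervals) by position and by openness in an Embryo library (horizontal axis), for 5 patterns of openness in the adult libraries. Regions closed in SmoM2 alone lay within 1 kb of a gene end in 8.44% of cases, between regions open in WT alone (3.84%) and those open in all 9 adult libraries (27.3%), and only 3.57% were open in an Embryo library.

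Of the 308 regions 11 were open in the embryo, a smaller share than of all regions. Embryo 1 had an interval at 10 of the 308 (3.25%, 1.77 to 5.87) and Embryo 2 at 2 (0.649%, 0.178 to 2.34), 11 regions in all (3.57%, 2.01 to 6.28). Of all regions, 19.6% were open in Embryo 1, 11.2% in Embryo 2 and 21.0% in either. All regions include 4618 that were open in no adult library and so are open in the embryo by construction. The share was 2.53% (1.95 to 3.27) among regions open in WT alone, 4.95% among those missing from WT alone, 6.77% among those open in SmoM2-Sox9cKO alone, 10.2% (6.64 to 15.4) among those missing from SmoM2-Sox9cKO alone and 38.1% among those open in all 9 adult libraries. The Embryo lists were shorter than any adult list, and the part of list length in these shares was not tested. The 11 lay at Grm6, Unc5cl, Lbp, Hoxd1, Kcnip1, Lrrc38, Fgf18, Cdon, Rxra, A4galt and Samd5 (the nearest gene, named after their values were seen). Only the region over the Grm6 start (chr11:50849640-50851547) was open in both Embryo libraries. Its fold enrichment was 4.51, 4.68 and 5.89 in WT and 4.42, 2.72 and 4.46 in SmoM2-Sox9cKO.

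Among named gene lists, the Hedgehog list had the largest share of genes with a region, at 3 of 25. Each region was tied to its closest protein-coding gene if that lay no more than 100 kb away, which left 277 regions at 261 different genes, 1.21% of 21627. Of 25 genes of the Hedgehog pathway, 3 (12%) had one: Gli3, the Gli factor that acts largely as a repressor, and Cdon and Gas1, 2 cell-surface co-receptors for Hedgehog ligands. The genes of this list hold a median of 10 regions each, against 2 for all genes, so a larger share is not by itself particular to the list. Within Gli3 (chr13:15544710-15545799) the fold enrichment was 3.66, 3.22 and 3.54 in WT and 3.57, 4.23 and 2.98 in SmoM2-Sox9cKO, with overlap. The region 15.7 kb from Cdon (chr9:35405047-35405786) had 4.38, 3.74 and 3.8 against 5.25, 3.02 and 3.57. The region 64.8 kb from Gas1 (chr13:60242299-60243094) had 5.86, 5.08 and 5.81 against 5.53, 4.23 and 5.06. In all 3 the groups overlapped, and none met the rule at a −log10 q of at least 5.

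Gli1, Gli2, Ptch1 and Smo, the core of the pathway, were not the closest gene of any such region within 100 kb. Neither was Sox9 or any of the 18 Sox factors, Sox2 included. Beyond that distance, 1 region (chr11:112406260-112407201) had Sox9 as its closest protein-coding gene, 375 kb away, and 1 had Sox5, 286.9 kb away (both singled out after their values were seen). The fold enrichment of the first was 6.92, 8.54 and 8.47 in WT against 4.42, 3.33 and 4.76 in SmoM2-Sox9cKO, and the groups stood apart. Its nearest SmoM2 interval was 50.9 kb away. In the squamous basal list 0 of 25 genes, Krt5, Krt14 and Trp63 among them, were the closest gene of a region. One region (chr15:101729501-101730262) was counted at Krt71, 3.69 kb away, but Krt5 (chr15:101707069-101712905) also lay within 100 kb of it. The differentiation list had 1 of 37, Dsp, which encodes the desmosomal linker desmoplakin. At Dsp (chr13:38164879-38165408) the fold was 3.51, 3.49 and 4.77 in WT against 3.19, 4.39 and 3.82, which overlapped. The columnar and foregut list had 1 of 32, Cdh17, an intestinal cadherin, while Krt8, Epcam and Foxa2 had none. BMP and TGF-beta genes (0 of 38), Notch genes (0 of 25), cell cycle genes (0 of 31) and housekeeping genes (0 of 26) had none either. Klf4 also had none. Only 1.21% of all genes had a region, so 0 genes in lists of this size is not read as a result about them.

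Other lists had 1 to 3 genes each. Among Wnt genes these were Nkd1, a feedback inhibitor, and Ror1, a receptor of non-canonical Wnt ligands (2 of 50). In the list of receptor kinases and growth factors it was Ntrk3, the receptor of neurotrophin 3 (1 of 40). Genes of this kind outside that list, such as Fgf3, Fgf18 and Flt1, also had one. The region within Ntrk3 (chr7:78519923-78521117) had 6.65, 10.3 and 6.83 in WT against 4.97, 6.35 and 6.25, with no overlap. The widest of all 308 lay within Ntf3 (chr6:126141525-126143790), the gene of neurotrophin 3 itself, with 6.44, 3.48 and 3.92 against 3.78, 4.22 and 3.79. Among hair follicle genes Msx1 and Cux1, both homeobox factors, had one (2 of 25). Among matrix and adhesion genes Col6a3, Lamb1 and Loxl1 did (3 of 48), which encode a collagen chain, a laminin chain and a collagen-crosslinking enzyme. Rxra (1 of 37 in the list of AP-1, Klf, Tead and nuclear receptor genes), Slit3 (1 of 44 axon guidance and synaptic genes), Pax7 (1 of 27 fibroblast and muscle genes), Flt1 (1 of 24 endothelial and immune genes) and Snap25 (1 of 17 neural, glial and melanocyte genes) complete the lists.

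More than 1 of these regions lay at each of 15 genes. Slit3 had 3, of which the second (chr11:35151296-35152264) stood at 4.12, 4.83 and 4.26 in WT and 4.44, 3.62 and 4.79 in SmoM2-Sox9cKO, and the third (chr11:35261361-35262117) at 5.12, 3.76 and 5.92 against 2.65, 3.54 and 2.5. Of the 3, the groups stood apart by percentile in the third alone. With 2 each stood Cemip, Tsc22d1, a leucine zipper factor, Trabd2b, a membrane protease that inactivates Wnt ligands, Mrvi1, a target of cGMP-dependent kinase in muscle, Prep, a peptidase, Flcn, the tumor suppressor folliculin, Aopep, Pcsk6, a proprotein convertase, Hcfc2, Gask1a and Camta1. The 2 regions of Flcn lay 0.417 kb apart and those of Prep 6.47 kb apart, so they may be parts of one open stretch. Within Tsc22d1 (chr14:76494717-76495553) the fold was 5.86, 4.01 and 4.15 in WT and 6.63, 7.26 and 9.22 in SmoM2-Sox9cKO, and within Mrvi1 (chr7:110948507-110948998) 5.61, 4.66 and 5.23 against 6.01, 6.35 and 7.4. SmoM2-Sox9cKO was higher by fold in both, but by percentile the groups overlapped. The second region within Tsc22d1 (chr14:76448729-76449352) was 1 of the 4 in which SmoM2-Sox9cKO stood above WT on both scales, at 5.25, 3.93 and 4.17 against 2.93, 3.48 and 2.77 in WT.

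At these genes the other open regions were also lower in number in SmoM2 at more loci than among all loci. This is the contrast that chose the regions, so the counts are descriptions. Counting regions other than the 308 at each of the 255 loci that had any, all 3 SmoM2 libraries lay under all 3 WT libraries at 43 loci (16.9%), against 5.09% of all 17844 loci, and over them at 22 (8.63%), against 10.5%. All 3 SmoM2-Sox9cKO libraries lay under WT at 36 loci (14.1%), against 5.11%, and over WT at 27 (10.6%), against 7.51%. Loci with a mean of 5 or more open regions in WT gave 20.8% under WT in SmoM2 with one of the 308 and 8.41% without. At 62 of the 261 genes there was also a region open in WT alone, against 1490 of all 21627 genes (6.89%), a comparison that does not allow for how many regions a gene holds.

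Single loci differed in whether the rest of the locus followed. At Trabd2b the other open regions numbered 15, 20 and 18 in WT, 5, 3 and 8 in SmoM2 and 15, 9 and 14 in SmoM2-Sox9cKO. At Ntrk3 they numbered 14, 11 and 12, then 6, 6 and 7, then 10, 8 and 10. At Flt1 they numbered 17, 21 and 20, then 12, 15 and 14, then 17 in each. In these 3 loci every SmoM2-Sox9cKO library stood above every SmoM2 library. They are examples out of 261 loci, and the share of loci with this order was not counted. At Stac, by contrast, they numbered 13, 14 and 16 in WT, 6, 7 and 6 in SmoM2 and 7, 6 and 6 in SmoM2-Sox9cKO, so the region described above was open in SmoM2-Sox9cKO while the number of other open regions stayed at the level of SmoM2. Snap25 went the other way, with 2, 4 and 4 in WT, 9, 9 and 10 in SmoM2 and 13, 12 and 11 in SmoM2-Sox9cKO. At Slit3 the numbers were 25, 30 and 29, then 24, 18 and 21, then 30, 30 and 36.

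At Sox9 the open regions of the locus numbered 11, 7 and 9 in WT, 9, 10 and 11 in SmoM2 and 10, 12 and 9 in SmoM2-Sox9cKO, which overlapped throughout. At Ptch1, a target and inhibitor of the pathway, they numbered 8, 11 and 10, then 13, 12 and 15, then 13, 15 and 14. At Gli2 they numbered 18, 21 and 22, then 26, 25 and 30, then 28, 21 and 26. At both genes every SmoM2 library stood above every WT library, and at Ptch1 every SmoM2-Sox9cKO library did.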

How the data were processed

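Per the labels' protocols, sorted esophageal cells were treated with transposase and the libraries sequenced as paired ends. Per the submitters' processing notes, Trimmomatic, Bowtie2, Picard, MACS2 and deepTools were used with GRCm38/mm10. No version or setting of these tools is stated, nor whether reads were shifted for the transposase, and depth is unknown. One interval list per library was used. The authors deposited a score (column 5, not used here), fold enrichment (column 7), −log10 p-values (column 8), −log10 q-values (column 9) and summit positions (column 10).

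Intervals repeated for several summits were joined, chromosomes 1 to 19 and X kept, and all 11 lists merged. Coordinates are 1-based. Groups were compared by exact permutation tests over libraries, and shares have 95% Wilson intervals. Genes and promoters are from RefSeq (GRCm38.p6). The promoter table used here placed 299 of the 308 regions, and start sites on chromosome 18 were not used here, so promoter windows and start-site shares leave it out. The region step, tested on simulated data, recovered 200 of 200 planted regions. Each planted region had an interval in every WT and SmoM2-Sox9cKO list and none in the others. Recovery therefore checks the code and says nothing on weak or missed intervals. Python 3.11.15, numpy 2.4.6, pandas 2.3.3, scipy 1.17.1 and matplotlib 3.10.9 were used.

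The regions, gene lists, markers and motifs were chosen with earlier results of these data known. Regions named are the 12 highest by median percentile, the 5 widest, up to 12 within 1 kb of a gene end, those open in both Embryo libraries, up to 12 genes with 2 or more, list genes, a fixed set of pathway and keratinocyte genes, and the 3 lowest.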

Additional observations from a re-analysis of the deposited data

Results flagged for a closer look

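Each of the 3 SmoM2 libraries had 9 intervals at 4 Y-linked genes (Kdm5d, Ddx3y, Uty and Eif2s3y), a signal outside the chromosomes analysed and above the WT libraries, which had 5, 0 and 0. The SmoM2-Sox9cKO libraries had 8, 10 and 0, and the Embryo libraries 0 and 0. Whether the sex of the animals moved the 308 regions was not tested. Leaving out the X chromosome kept 303 of them.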

How the results depend on the processing

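The order of the groups held wherever it could be computed: the difference in median percentile was negative in 19 of 19 alternatives (-20.1 to -8.88) and that in relative width in 17 of 17 (-0.199 to -0.0719). These alternatives reuse the same libraries and the same kind of rule, and are not independent. The replicate block is among them, and its difference equals the main one by arithmetic. Windows of one fixed width give no relative width. The number and identity of the regions depended on the processing. It was 480 with lists of equal length (69026 intervals each), of which 132 were among the 308, and there 6.46% were open in Embryo 1. With a −log10 q of at least 5 it was 266, of which 48 were among the 308, with 0.376% and 0.0% open in Embryo 1 and 2. With an interval over at least 50% of the region it was 361, of which 54 were shared. Asking for 2 of 3 libraries gave 1335. Chosen after seeing the data, a −log10 q of at least 5 in WT and SmoM2-Sox9cKO alone left 48, with 0.0% open in Embryo 1 and 0.0% in Embryo 2, 60.4% in a gene body, 2.08% within 1 kb of a gene end and 14.6% over 100 kb from a gene. The cause of these moves was not tested. Fewer intervals entered with the q-value limit and with lists of equal length, whereas the 50% and 2 of 3 settings used them all.

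Leaving out 1 library gave 343 to 810 regions, with 3.2% to 4.43% open in Embryo 1, 0.457% to 1.96% in Embryo 2, 50.6% to 55.9% in a gene body, 6.99% to 10.5% near a gene end and 8.64% to 11% over 100 kb from a gene. The percentile difference was -14.6 to -10.6 and the width difference -0.199 to -0.126. With a replicate block, -14.0 and -0.176 each had an exact sign-flip p of 0.25, the smallest that 3 pairs allow. Same-numbered WT and SmoM2-Sox9cKO libraries had correlations of 0.0255, 0.137 and -0.02, and not every one correlated best with its own number. For WT and SmoM2 they were 0.0419, 0.05 and 0.0204, each the highest that its WT library had with SmoM2. For SmoM2 and SmoM2-Sox9cKO they were -0.037, -0.0164 and -0.0024. Correlations this weak cannot tell whether the numbers pair the libraries.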
